A study of Homo sapiens with 4 samples.

Results

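The miR-200 family was read in exosomes (membrane vesicles shed by cells) from Hep3B, a human hepatocellular carcinoma line. Its members were taken by name, as every array entry called miR-200a, miR-200b, miR-200c, miR-141 or miR-429 with either arm or none, which gave 4 of 1308 entries: miR-200b-3p, miR-200c-3p, miR-200b-5p and miR-200a-5p. Small RNA was labelled with Cy5 and read on 4 one-colour microarrays, 2 for Hep3B cells exposed to 10 µM camptothecin over 2 days and 2 for Hep3B cells that per the labels had no treatment, all kept in medium free of other exosomes. Camptothecin is an inhibitor of topoisomerase I that causes DNA strand breaks. In the authors' ratio table the comparator is named DMSO, so whether those cells had a vehicle is not settled. The other arms of the family (miR-200a-3p, miR-200c-5p, both arms of miR-141, and miR-429) were not analysed here.

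The miR-200 miRNAs keep cells epithelial. Their 3p arms repress the transcription factors ZEB1 and ZEB2, which switch off E-cadherin and drive the transition of epithelial cells to a mesenchymal, migratory state, and ZEB factors in turn repress the miR-200 genes. In liver the family is known mainly from bile duct epithelium, and its loss in liver cancer has been linked to invasion. The 5p arms are the opposite strands of the same hairpins and are less well characterised.

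The hairpins lie in clusters on chromosomes 1 and 12. In RefSeq (GRCh38.p14), MIR200B is at chr1:1167104-1167198 and MIR200A at chr1:1167863-1167952, 759 bases further on, both on the plus strand and both within the span of the long noncoding RNA gene MIR200BHG. MIR200C is at chr12:6963699-6963766, on the plus strand within the span of MIR200CHG, with MIR141 starting 398 bases after it. The hairpin of miR-200b is shown because it is the 1 hairpin of the family with both arms measured, the 5p arm and then the 3p arm in capitals.
MIR200B hairpin: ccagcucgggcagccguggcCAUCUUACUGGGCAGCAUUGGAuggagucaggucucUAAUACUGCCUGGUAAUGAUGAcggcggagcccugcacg

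The measured members fall into 2 seed groups, a seed being bases 2 to 8 of the mature miRNA, which pair with its targets. The mature RefSeq sequences are given from 5′ to 3′ with the seed in capitals, and miR-200a-3p is added to show the other 3p seed of the family, for which no entry was measured.
miR-200b-3p: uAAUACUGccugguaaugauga
miR-200c-3p: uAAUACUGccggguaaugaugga
miR-200b-5p: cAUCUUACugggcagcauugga
miR-200a-5p: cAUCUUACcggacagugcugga
miR-200a-3p: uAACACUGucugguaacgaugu

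Counting from 1 at the 5′ end, miR-200b-3p and miR-200c-3p are equal at 20 of 22 bases and differ by U11G and A22G, with 1 more base at the end of miR-200c-3p. miR-200b-5p and miR-200a-5p are equal at 17 of 22 bases and have the same seed. Between miR-200b-3p and miR-200a-3p the seed differs by U4C. Probe sequences were not used here, so how far a probe for miR-200b-3p also binds miR-200c-3p is unknown. Of the 1308 entries, 1105 carry the name of a mature miRNA in the RefSeq table, and 0 of these outside the family have either seed of the 4 measured members or the seed of miR-200a-3p.

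The 2 members called higher after camptothecin were the 3p arms, where 35.1% of all entries were called higher. miR-200b-3p read 179.1 and 179.6 on the camptothecin arrays, against 161.1 and 151.2 on the untreated arrays, in arbitrary units of deposited intensity on a linear scale. The 2 camptothecin values were almost equal and both lay above both untreated values. The group means were 179.3 ± 0.41 after camptothecin and 156.2 ± 6.9 untreated (SD, n = 2 each), a 1.15-fold difference. On the log2 scale this was 0.20 ± 0.048 (SE), which passed the test (limma with Benjamini-Hochberg adjustment over all 1308 entries, adjusted p = 0.0227). With any 1 of the 4 arrays left out, the log2 fold change was 0.16 to 0.25 and did not pass (limma adjusted p = 0.107 to 0.131). Such a fit has 1 array in a group and takes the spread from the other group, and only 1 to 71 of the 1308 entries passed it.

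miR-200c-3p, from the chromosome 12 cluster, read 152.1 and 148.6 on the camptothecin arrays, against 116.2 and 131.2 on the untreated arrays. The groups did not overlap, and the untreated arrays were the less alike pair. Its means were 150.4 ± 2.5 after camptothecin and 123.7 ± 10.6 untreated (SD, n = 2 each), a 1.22-fold difference and the largest of the 4 members. The log2 fold change was 0.28 ± 0.068 (SE; limma adjusted p = 0.0227). Without untreated replicate 1 its log2 fold change was 0.20, and without untreated replicate 2 it was 0.37. It too did not pass with any 1 array left out (limma adjusted p = 0.108 to 0.165).

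The 5p arms did not pass. miR-200b-5p, the brightest member, read 184.9 and 175.0 on the camptothecin arrays, against 164.5 and 165.8 on the untreated arrays, with the 2 untreated values almost equal and below both camptothecin values. Its log2 fold change was 0.12 ± 0.046 (SE, n = 2 arrays per group; limma adjusted p = 0.0728). miR-200a-5p, which shares its seed, read 146.3 and 157.4 on the camptothecin arrays, against 144.0 and 140.6 on the untreated arrays. Here the lower camptothecin value stood just above the higher untreated one. The log2 fold change was 0.093 ± 0.052 (SE; limma adjusted p = 0.18), and its 95% interval ran from -0.036 to 0.22, so it spans a small fall as well as a rise like that of miR-200b-3p. It was 0.15 without camptothecin replicate 1 and 0.040 without camptothecin replicate 2, and did not pass in either (limma adjusted p = 0.106 and 0.472).

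**Figure D1:**
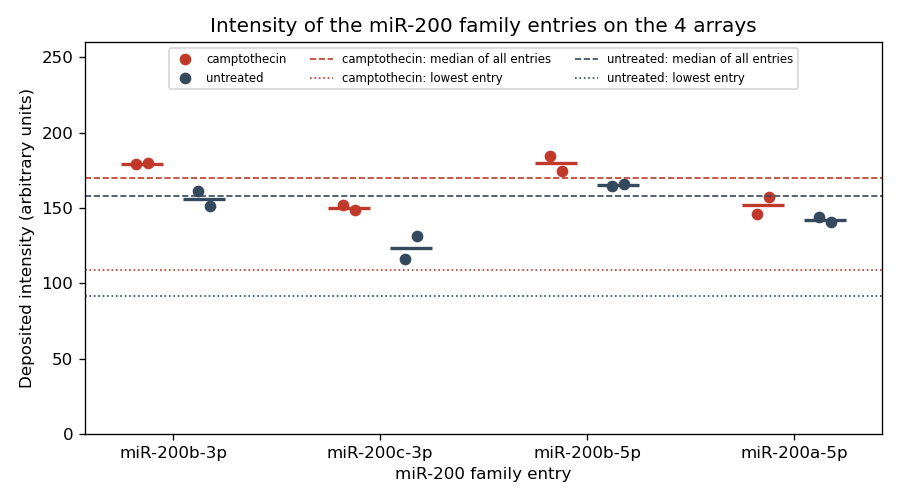
Deposited intensity (arbitrary units, linear axis from 0) of the 4 miR-200 family entries on the camptothecin arrays (red) and the untreated arrays (dark blue); points are arrays, short bars are means of 2, dashed lines are the median and dotted lines the lowest value of all 1308 entries in each group. Every member has both camptothecin points above both untreated points, and all points lie closer to the dotted and dashed lines than to the tops of these arrays, 8435 for camptothecin and 12998 for untreated.

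These counts stand against a high background. Both camptothecin arrays were above both untreated arrays in 4 of 4 members, as in 59.4% of all entries. The test called 2 of 4 members higher and 0 lower, against 35.1% called higher and 11.2% called lower among all entries. The median log2 fold change of the 4 members was 0.16, and that of all entries was 0.11. Relative to this median of all entries, miR-200c-3p was at 0.17, miR-200b-3p at 0.089, miR-200b-5p at 0.011 and miR-200a-5p at -0.019 on the log2 scale. Nothing in the labels ties the 2 arrays of a group to separate cultures, so the spread between these arrays may be technical. The p-values rest on that spread alone, shared in part over all entries by the fit. Both arrays of each group hold the same sorted values, which can make these p-values too small.

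The family's probes were of low to middling brightness. A percentile here ranks a probe's mean log2 intensity over the 4 arrays among all 1308 probes, and since probes differ in their affinity it is not a ranking of miRNA abundance. miR-200c-3p stood at the 24.8 percentile, miR-200a-5p at 37.1, miR-200b-3p at 51.9 and miR-200b-5p at 53.9. By group, miR-200c-3p ranked at the 34.6 and 29.5 percentiles on the camptothecin arrays, against 9.82 and 27.3 on the untreated arrays, so the first untreated array stands apart. miR-200b-5p kept nearly the same rank, at 57.0 and 52.3 on the camptothecin arrays and 52.8 and 53.6 on the untreated arrays. miR-200a-5p ranked at 26.1 and 40.3 on the camptothecin arrays, a range that holds both its untreated ranks of 39.8 and 37.0. miR-200b-3p ranked at 54.6 and 54.8 on the camptothecin arrays, against 51.5 and 45.1 on the untreated arrays.

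Read as a multiple of the lowest entry on the same array, miR-200c-3p was at 1.40 and 1.37 on the camptothecin arrays and at 1.27 and 1.43 on the untreated arrays. miR-200b-5p, the brightest member, was at 1.70 and 1.61 on the camptothecin arrays and at 1.80 and 1.81 on the untreated arrays. miR-200b-3p was at 1.645 and 1.651 on the camptothecin arrays, against 1.762 and 1.654 on the untreated arrays. For miR-200a-5p the values were 1.34 and 1.45, against 1.57 and 1.54. On this scale no member had both camptothecin values above both untreated values. No detection call or background reading was used here, so how much of a member's intensity is signal is unknown.

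The share of entries called higher depended on level. Entries were split by level into 4 quartiles of 327. In the dimmest, which holds miR-200c-3p, 61.5% were called higher, in the second, which holds miR-200a-5p, 39.1%, and in the third, which holds both arms of miR-200b, 21.1%. Both camptothecin arrays were above both untreated arrays for 90.2%, 72.2% and 48% of entries in these quartiles. The median log2 fold changes of the quartiles were 0.21, 0.13 and 0.062, dimmest first. Relative to its own quartile's median, miR-200b-3p was at 0.14 on the log2 scale, miR-200c-3p at 0.077, miR-200b-5p at 0.062 and miR-200a-5p at -0.036. Set against its own quartile's median, miR-200b-3p thus stood further out than miR-200c-3p, the reverse of their order in fold change. At the 24.8 percentile, miR-200c-3p lies near the bright edge of its quartile. At 51.9, miR-200b-3p lies near the dim edge of its own. The medians fall with level, so this order may depend on where the quartiles were cut, which was not tested. As a description, the log2 fold change of miR-200b-3p was above or equal to that of 85.3% of its quartile. Those of miR-200c-3p, miR-200b-5p and miR-200a-5p were above or equal to 78.3%, 71.3% and 32.4% of theirs. The part of level in these changes was not tested.

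**Figure D2:**
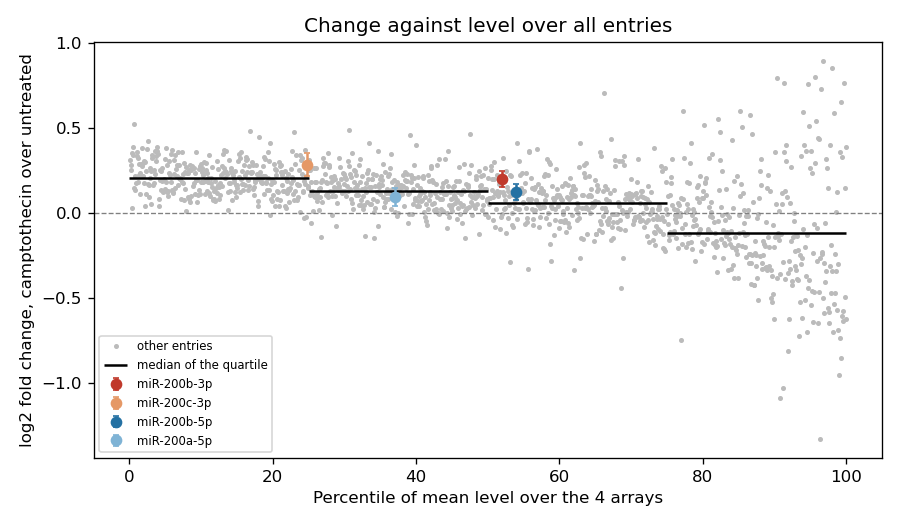
Log2 fold change of camptothecin over untreated (vertical axis) against the percentile of mean level over the 4 arrays (horizontal axis) for all 1308 entries, with the miR-200 family entries in colour with SE bars and the median of each quartile of level as a black line. The medians step down from 0.21 in the dimmest quartile to -0.12 in the brightest; miR-200b-3p lies 0.14 above the line of its quartile and miR-200a-5p 0.036 below its own.

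The direction of the family as a whole depended on how the arrays were scaled to each other. As deposited, both arrays of each group hold the same sorted values and all 4 share a 75th percentile of 250.15. With the 4 arrays quantile normalized together, 0 of 4 members passed, against 6.88% of all entries called higher, and 0 members had an unadjusted p under 0.05 (limma). miR-200b-3p was then at a log2 fold change of 0.10 (limma adjusted p = 0.252), miR-200c-3p at 0.12 (0.303), miR-200b-5p at 0.028 (0.74) and miR-200a-5p, whose sign turned, at -0.046 (0.639). With each array centred on its median, or after a normexp background correction, 0 of 4 passed by limma, against 9.02% and 8.1% of all entries called higher. An unadjusted p under 0.05 was held by miR-200c-3p in the first and miR-200b-3p in the second, and miR-200a-5p was again below 0, at -0.012 and -0.022. That correction was followed by scaling the arrays to a common 75th percentile over all entries. With both steps, miR-200b-3p and miR-200c-3p kept log2 fold changes of 0.20 and 0.29. Their errors were larger (SE 0.076 and 0.12, limma adjusted p = 0.146 and 0.158). With the 75th percentile taken over entries above the median level, all 4 members passed as higher, with 68.2% of all entries called higher as well.

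The values also show a factor between the groups. All values under 250 were whole multiples of 0.585 on the camptothecin arrays and of 0.427 on the untreated arrays, within 0.02 of a step. Counted in these steps, miR-200b-3p read 306 and 307 on the camptothecin arrays, against 377 and 354 on the untreated arrays. miR-200c-3p read 260 and 254 steps on the camptothecin arrays, against 272 and 307 steps on the untreated arrays, and both members were thus below their untreated values on this scale. Without the factor, all 4 members were lower after camptothecin, with log2 fold changes of -0.25 for miR-200b-3p, -0.17 for miR-200c-3p, -0.33 for miR-200b-5p and -0.36 for miR-200a-5p. All but miR-200c-3p passed as lower (limma adjusted p = 0.0545 for miR-200c-3p), as did 89.1% of all entries. The factor shifts every log2 fold change by 0.45, so these data give the members' change relative to other entries but not in absolute amount.

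**Figure D3:**
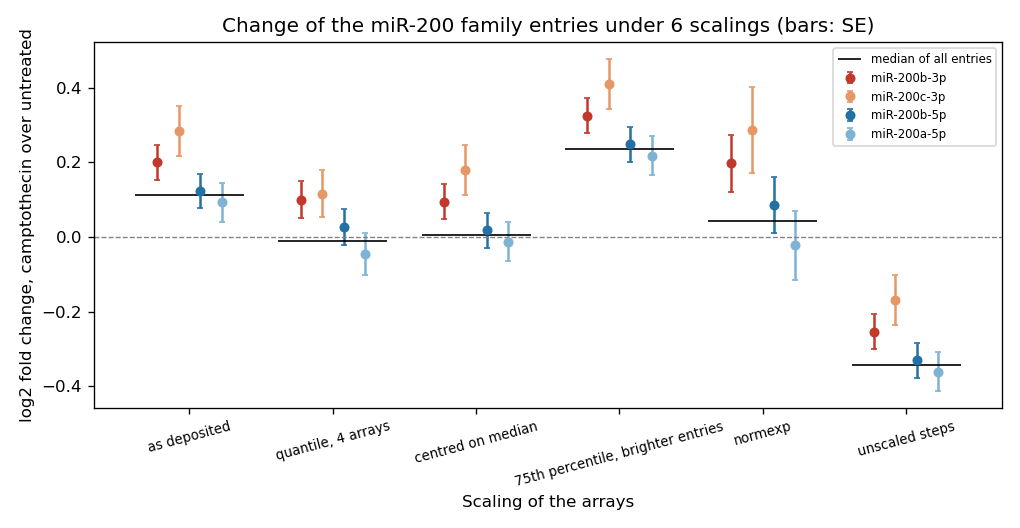
Log2 fold change of camptothecin over untreated, with SE bars, for the 4 miR-200 family entries under 6 scalings of the arrays; the black line is the median of all entries under each. miR-200b-3p and miR-200c-3p lie above the black line and miR-200a-5p below it, a position that 4 of the 6 scalings cannot change, while the side of 0 on which the members lie differs between scalings.

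Position relative to the median of all entries is fixed by construction in 4 of the 6 scalings shown, which shift every entry of an array alike, so quantile normalization and normexp are the 2 that could move it. Under these miR-200b-3p lay 0.11 and 0.15 above the median on the log2 scale, against 0.089 as deposited, and miR-200c-3p 0.13 and 0.24 above it, against 0.17 as deposited. miR-200b-5p lay 0.037 and 0.042 above it, and miR-200a-5p was at -0.036 and -0.065. With 1 array left out these positions lay between 0.042 and 0.14 for miR-200b-3p and between 0.089 and 0.26 for miR-200c-3p. miR-200b-5p turned to -0.035 without camptothecin replicate 1. miR-200a-5p turned to 0.027 without camptothecin replicate 1 and to 0.0018 without untreated replicate 1. Apart from the arms of miR-200b, the members' changes were not tested against each other.

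The 2 arms of the miR-200b hairpin come from 1 transcript, and their changes can be set beside each other array by array. The log2 intensity of the 3p arm minus that of the 5p arm was -0.046 and 0.038 on the camptothecin arrays, against -0.030 and -0.13 on the untreated arrays. The groups overlapped. The difference between them was 0.077, with an exact two-sided permutation p of 0.667. Since 2 arrays against 2 can reach no less than 0.333, this test could not have passed, and the arms are shown neither to differ in change nor to change alike.

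For each member the 2 entries of the same quartile with the most similar pattern were found, by the Euclidean distance between log2 values over the 4 arrays, each centred on its own mean. For miR-200b-3p these were miR-1243 (distance 0.017) and miR-3686 (0.017), and for miR-200c-3p miR-4268 (0.024) and miR-4309 (0.050). For miR-200b-5p they were miR-4793-3p (0.019) and miR-500a-3p (0.022), and for miR-200a-5p miR-924 (0.016) and miR-6069 (0.025). miR-1243 read 175.0 and 177.9 on the camptothecin arrays, against 159.4 and 148.3 on the untreated arrays, with both camptothecin values above both untreated values. With 4 arrays and 325 or 326 candidates for each member, close matches of this kind are a description only.

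Other miRNAs linked to the epithelial-mesenchymal transition were listed in 2 groups. Of 17 miRNAs that restrain it, 8 were measured. Of these, 6 were called higher and 0 lower, and their median log2 fold change was 0.22 against 0.11 for all entries. Of all entries 35.1% were called higher and 11.2% lower. The 8 probes lay between the 15.6 and the 70.0 percentile, 7 of them in the 2 dimmer quartiles, where 61.5% and 39.1% of entries were called higher. The median log2 fold changes of those quartiles were 0.21 and 0.13. miR-145-5p, which represses growth and stem cell factors, had the largest change and read 165.0 and 162.7 on the camptothecin arrays, against 124.3 and 130.3 on the untreated arrays (log2 fold change 0.36; limma adjusted p = 0.00567). miR-34a-5p, which represses SNAI1, was at 0.28, miR-194-5p at 0.27, miR-192-5p, which represses ZEB2, at 0.23, miR-215, of the same seed family, at 0.20, and miR-138-5p at 0.19. miR-506-3p (0.20) and miR-101-3p, which represses EZH2 (0.084), did not pass. With the 4 arrays quantile normalized together 1 of the 8 passed, miR-145-5p (0.22; limma adjusted p = 0.0331), with 6.88% of all entries called higher.

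Of 16 miRNAs that promote the transition or mark mesenchymal cells, 8 were measured. Of these, 3 were called higher and 1 lower, and their median log2 fold change was 0.13. These counts are near the shares over all entries, 35.1% higher and 11.2% lower, and are no result about the list. The higher ones were miR-222-3p (0.24), miR-661 (0.23) and miR-107 (0.16). miR-214-3p, a stromal miRNA and the brightest of the 8, read 482 and 479 on the camptothecin arrays, against 545 and 560 on the untreated arrays, a log2 fold change of -0.20 (limma adjusted p = 0.0235). miR-221-3p (0.13), miR-199a-5p (0.13), miR-143-3p (0.061) and miR-27a-3p (0.014) did not pass. With the 4 arrays quantile normalized together 0 of the 8 passed by limma, and the median turned to -0.029. The median of all entries turned as well, from 0.11 to -0.0093. These 8 probes lay between the 7.72 and the 89.9 percentile, a wider range of level than that of the restraining list. miR-222-3p was in the dimmest quartile and miR-214-3p in the brightest. The 2 groups thus differ in level, and they were not tested against each other.

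Among markers of cell types, 3 of 3 hepatocyte miRNAs were measured and called higher, where 35.1% of all entries and 61.5% and 39.1% of those in the 2 dimmer quartiles, which hold these 3, were called higher. By limma 0 of the 3 passed with the 4 arrays quantile normalized together, and 1 after normexp, miR-122-5p. miR-122-5p, the main miRNA of hepatocytes, stood at the 3.82 percentile of level, among the dimmest probes. miR-192-5p and miR-194-5p, also in the list of restraining miRNAs, make up the rest. Of 5 epithelial markers 2 were measured, the 2 3p members above. Of 6 miRNAs of blood cells, which can come with serum, 3 were measured. miR-150-5p was called higher (0.32; limma adjusted p = 0.0454), and miR-486-5p (-0.015) and miR-223-3p (0.11) did not pass. miR-150-5p did not pass with the 4 arrays quantile normalized together (limma adjusted p = 0.228) or after normexp (0.158). The summed intensity of the 3 was 598 and 665 on the camptothecin arrays, against 582 and 580 on the untreated arrays. Their part in the change of the miR-200 members was not tested.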

How the data were processed

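Exosomal small RNA of Hep3B cells was profiled on 4 arrays, 2 per group, grouped by the treatment in the labels. The values used are deposited intensities on a linear scale, 1 per probe. How the authors made these intensities is not given in the sources used here. Low values had a common step within each group, which was read from the values. The log2 ratios in the authors' second table, per the file headers, equal the differences of log2 intensity within 5e-10. That table was used for this check and for names, and 4 other columns of it were not used. 12 probes carry joint names.

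log2 intensities were compared over 1308 entries with limma 3.58.1 in R 4.3.3 (lmFit, eBayes with intensity trend, two-sided, Benjamini-Hochberg, threshold 0.05), with no filter or pseudocount. Equal sorted values within a group point to normalization within groups, which narrows the differences between replicates and can make p-values too small. Precision is limited by the number of arrays. The code was tested on simulated data. Members, lists and tests were chosen with earlier results of these data known. Named are all members, the 2 nearest entries of each and all measured entries of the lists. Sequences and positions are from RefSeq, GRCh38.p14. Alternatives were other scalings, normexp (offset 50), pseudocounts of 16 and 64, a filter on level, other variance settings, a replicate block, and each array left out in turn.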

Additional observations from a re-analysis of the deposited data

How the results depend on the processing

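The 2 family members called higher became 0 with the 4 arrays quantile normalized together, 0 with each array centred on its median, 0 after normexp, 4 with the 75th percentile over entries above the median level, and 3 called lower with the factor between groups taken out. An unadjusted p under 0.05 was held by 0, 1, 1, 4 and 4 members in that order. With the dimmer entries filtered out at the median level, 2 members were tested and 1 passed. The total of 606 calls became 169, 330, 191, 975 and 1177 in the order of the 5 scalings, and 267 with the filter on level. Lower calls outnumbered higher ones when arrays were centred (212 against 118), with the factor taken out (1166 against 11) with the filter (142 against 125), and with an array left out (42 against 29 and 29 against 15 without camptothecin replicate 1 and 2, and 1 against 0 without either untreated array). With 1 array left out, 0 to 0 members and 1 to 71 of all entries passed; an unadjusted p under 0.05 was then held by 1 member, a 5p arm, without each camptothecin array (miR-200a-5p without replicate 1, miR-200b-5p without replicate 2), and by the 2 3p arms without each untreated array. miR-200a-5p turned to -0.046 under quantile normalization, -0.012 when centred and -0.022 after normexp. With the factor taken out, the log2 fold changes were -0.25 for miR-200b-3p, -0.33 for miR-200b-5p, -0.36 for miR-200a-5p and -0.17 for miR-200c-3p. Each scaling other than quantile normalization and normexp shifts the entries of an array alike. The cause of the other changes was not tested. Pseudocounts and variance settings changed no member's call. The replicate numbers share only a number: the differences between replicates 1 and 2 of the 2 groups correlated at -0.072 across entries, and with the replicate number as a block 550 entries and the same 2 members passed. The difference between arms of miR-200b lay between 0.026 and 0.13 in all alternatives run for it, a set added after the data were examined. Scalings that shift all entries of an array alike cancel between the arms and could not change this difference.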
